A study of Mus musculus with 6 samples.

Results

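Scavenger receptors are a loose family of membrane proteins that bind modified lipoproteins, bacteria, apoptotic cells, mineral particles and damaged matrix, and they are grouped into classes by structure rather than by descent. Macrophages carry receptors of several classes. Class A members have a collagen-like stalk, class B members span the membrane at both ends and handle lipids, and the remaining classes include receptors with epidermal growth factor-like repeats and a mucin-like protein of the lysosome. The genes described here are Marco, Msr1, Cd36, Scarb1, Scarb2, Scarf1, Cd68 and Stab1. They were found by their gene symbols in the 6 deposited files, and all 8 were present among 24394 symbols.

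The cells were macrophages grown from the marrow of C57BL/6 mice at postnatal day 28, over 7 days in medium with macrophage colony-stimulating factor at 50 ng/ml, and their RNA was sequenced. In the stimulated group, 3 cultures were then kept for 24 h with cartilage fragments at 5 per macrophage. The control group was 3 cultures without fragments. The marrow and the cartilage came from the same mice, and nothing in the labels says that the cultures of a group came from separate animals, so the p-values measure the spread between these cultures, which may be technical. The comparison asked which receptors of macrophages change when the cells meet cartilage debris, as they do in an arthritic joint.

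The deposited values are FPKM, a fragment number corrected for transcript length and library depth, listed for annotated transcripts and for transcripts that Cufflinks assembled in 1 library and left without a symbol. The depth recovered from the deposited coverage was 692000 to 769000 fragments per library, which limits the precision of weakly expressed genes. The Methods give a far larger number of mapped reads per sample, and this difference was not resolved, so the fragment numbers and their counting intervals below rest on the recovered depth. Assembled transcripts without a symbol held 15.8% to 20% of the FPKM of a library. Where a receptor had such transcripts, its values are given without and with them. All 10 macrophage markers examined, among them Adgre1, Csf1r and Itgam, were tested, with Mertk alone listed at 0 in some libraries, 9 of 14 listed chondrocyte markers were at 0 in every library, and the chondrocyte markers summed to 1.54 to 4.22 FPKM in controls and 1.18 to 2.82 FPKM in stimulated cultures. Fibroblast markers summed to 200 to 218 FPKM in controls and 126 to 147 FPKM in stimulated cultures, without overlap. Col1a1, Col1a2 and Postn held most of this sum, while Lum, Pdgfra, Thy1, Fbln1 and Mfap5 averaged under 1 FPKM in both groups. Col3a1 and Dcn averaged 3.14 and 2.79 FPKM in controls and 1.73 and 3.52 FPKM in stimulated cultures. Whether fibroblasts were present, and their part in the receptor values, was not tested. In fragments of the whole locus 3 of 6 tested fibroblast markers (Col1a1, Col1a2 and Postn) fell and 4 of 10 macrophage markers (Adgre1, Itgam, C1qa and Cd14) rose in limma, while 0 of either list passed by annotated FPKM. Of all genes tested, 2.29% passed in fragments of the whole locus and 0.184% by annotated FPKM. Neutrophil markers summed to 815 to 953 FPKM in controls and 758 to 1180 FPKM in stimulated cultures, dendritic cell markers to 64.5 to 90.8 and 59.4 to 73.3 FPKM, lymphocyte markers to 1.35 to 6.54 and 1.36 to 4.38 FPKM and endothelial markers to 0.922 to 2.76 and 1.22 to 1.96 FPKM, and all 7 erythroid markers were at 0. Of these lists, 0 genes passed on either scale. Itgax, averaging 74.5 FPKM in controls and 64.7 FPKM in stimulated cultures, held most of the dendritic cell sum. The other genes of that list averaged under 1 FPKM in both groups. In RNA from whole cultures, fewer cells of a type and less RNA per cell cannot be told apart. The Methods give male mice, but Xist was present in all 6 libraries and the 4 Y-linked genes examined were at 0 in all of them.

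Marco, at 15.5-fold, was the 1 receptor of the 8 that passed the threshold in the comparison of annotated FPKM. An unadjusted p under 0.05 from limma was found in 3 of the 8, and in 675 of all 10352 genes tested. Of 10352 genes tested with limma, 19 (0.184%) passed an adjusted p of 0.05, 15 higher and 4 lower, against 1 of the 8 receptors. In 2 of the 8 receptors, Marco and Scarf1, the groups did not overlap and the stimulated one was higher, which was the case in 8.73% of all genes tested. In 1 of the 8, Cd36, they did not overlap and the stimulated one was lower, which was the case in 6.13% of all genes. The median log2 fold change of the 8 receptors was 0.06, and that of all genes tested was 0.02.

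**Figure D1:**
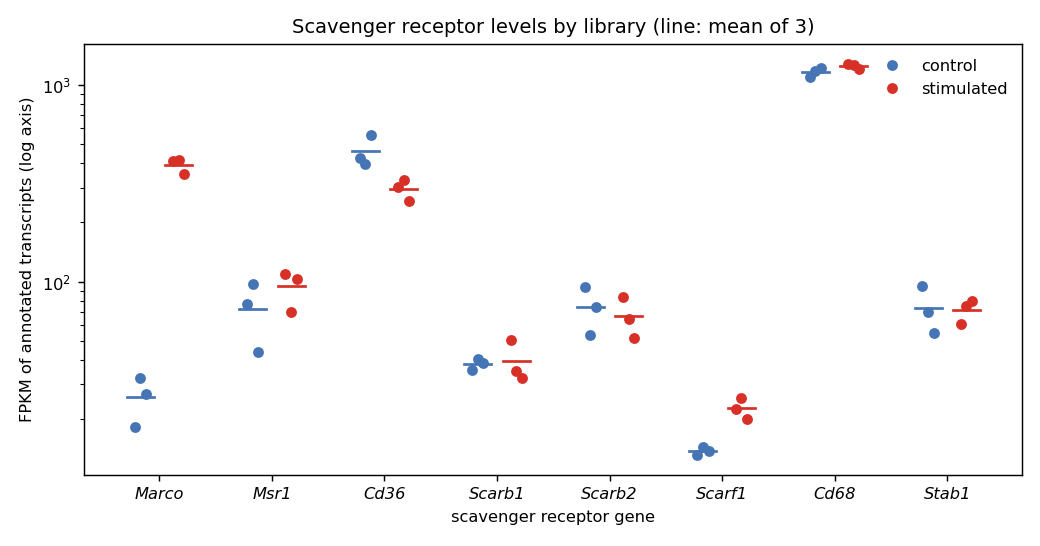
FPKM of the annotated transcripts of each receptor on a log axis, with 1 point per library, control in blue and stimulated in red, and a line at the mean of 3 libraries. Marco moves from 18.3 to 32.3 FPKM in controls to 350 to 415 FPKM in stimulated cultures, while Cd68 stays near the top of the plot in both groups.

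Marco encodes the macrophage receptor with collagenous structure, a class A receptor that binds bacteria and inhaled particles. In the control libraries, taken in the order of their replicate numbers here and below, Marco was at 18.3, 32.3 and 26.7 FPKM. In the stimulated libraries it was at 409, 415 and 350 FPKM. The groups lay far apart, and the lowest stimulated library was above the highest control library. The control mean was 25.8 ± 7.08 and the stimulated mean 391 ± 35.8 FPKM (SD, n = 3). Marco thus rose 15.5-fold, or by 3.95 on the log2 scale (standard error 0.223, 95% interval 3.41 to 4.50, adjusted p = 0.0105 from limma). In fragments the controls rested on 24.9, 43.0 and 34.9 and the stimulated libraries on 540, 525 and 430. The ratio of the summed fragments, scaled to depth, was 15.2, with an exact 95% interval of 12.4 to 18.7 that covers counting error only. The size of the rise held when any 1 library was left out (log2 fold change 3.73 to 4.14), but its adjusted p in limma was 0.110 without stimulated replicate 1 and 0.0612 without stimulated replicate 2.

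Marco has a single annotated transcript in the files (NM_010766, minus strand of chromosome 1, 120474538 to 120505084 on mm10), with 17 exons and 1554 coding bases in GENCODE. No assembled transcript lay at Marco in any library, so its values did not depend on how assembled transcripts were treated. Its upstream sequence is shown because Marco is the receptor that passed the threshold by annotated FPKM. The stretch below, from RefSeq (GRCm38.p6, chr1:120505085-120505274, minus strand), is the 190 bases before the start of the deposited transcript, which lies 60 bases upstream of the start that RefSeq gives. Capitals mark matches to a GC-flanked NF-kB pattern (G at the first 3 positions and C at the last 2 of 10) and to a PU.1 pattern (GAGGAA), on either strand.
Marco upstream: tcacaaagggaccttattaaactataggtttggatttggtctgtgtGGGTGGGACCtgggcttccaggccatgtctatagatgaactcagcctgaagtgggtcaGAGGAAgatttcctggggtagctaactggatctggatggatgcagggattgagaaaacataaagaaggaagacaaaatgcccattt
Counted from the RefSeq start, the NF-kB pattern began 204 bases upstream and the PU.1 pattern 146 bases upstream. At least 1 NF-kB pattern was found in 50.8% of 32851 promoter windows of 300 bases and the PU.1 pattern in 28.3%, so neither sets Marco apart. Overlapping NF-kB matches on the other side of the deposited start began 30 and 29 bases upstream of the RefSeq start. An AP-1 pattern, TGANTCA, found in 7.81% of windows, had no match in that of Marco. The same held for a core of the antioxidant response element, TGACNNNGC, found in 12.4% of windows. A TATA box, TATAAA, found in 13.6% of windows, had no match in it either. Windows were at hand for 5 of the 8 receptors, and among these AP-1 matched only in Cd68, at 149 and 24 bases upstream of its start.

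Msr1 encodes the other class A receptor among those described here, scavenger receptor A, which takes up acetylated low-density lipoprotein. Annotated transcripts of Msr1 were at 76.7, 97.4 and 43.9 FPKM in controls and at 110, 70.0 and 104 FPKM in stimulated libraries, and the groups overlapped. The log2 fold change was 0.43 (standard error 0.340, 95% interval -0.41 to 1.27, adjusted p = 0.797 from limma). It was 0.10 without control replicate 3 and 0.67 without control replicate 2, and 0.77 in fragments of the annotated transcripts. The low value of control replicate 3 and that of stimulated replicate 2 were both in libraries where an assembled transcript lay at the locus. With assembled transcripts added, Msr1 was at 76.7, 97.4 and 79.5 FPKM in controls and at 110, 126 and 104 FPKM in stimulated libraries, and the groups no longer overlapped. On that sum the log2 fold change was 0.42 (95% interval 0.12 to 0.72, adjusted p = 0.329 from limma), and in fragments of the whole locus it was 0.34 (95% interval 0.13 to 0.55, adjusted p = 0.0915 from limma).

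Msr1 is transcribed from the minus strand of chromosome 8 in forms that differ at their 3′ end. The longer reading frame (NM_001113326, 39581700 to 39642678) has 1374 coding bases and ends with a scavenger receptor cysteine-rich domain, and the other (NM_031195, 39603452 to 39642678) has 1062 coding bases and lacks it. The coding bases of exons 9 and 10 of NM_001113326, absent from NM_031195, are shown from GENCODE because they are what separates the forms.
Msr1 exon 9, chr8:39589290-39589478: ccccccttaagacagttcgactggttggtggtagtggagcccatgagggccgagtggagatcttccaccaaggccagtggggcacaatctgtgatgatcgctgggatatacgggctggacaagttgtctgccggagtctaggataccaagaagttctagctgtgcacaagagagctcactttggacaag
Msr1 exon 10, chr8:39581735-39581865: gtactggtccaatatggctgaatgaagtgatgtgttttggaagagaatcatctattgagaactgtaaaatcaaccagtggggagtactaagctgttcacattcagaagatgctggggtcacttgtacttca
Transcripts that reach the distal end, annotated and assembled together, were at 41.2, 57.4 and 43.9 FPKM in controls and at 69.2, 78.6 and 55.3 FPKM in stimulated libraries. Transcripts that stop at the proximal end were at 35.6, 40.0 and 35.6 FPKM in controls and at 40.6, 47.0 and 48.3 FPKM in stimulated libraries. Both forms were therefore present in every library. In control replicate 3 the annotated NM_031195 was listed at 0 while an assembled transcript with the same ends, 3647 bases long against 3643, was at 35.6 FPKM.

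**Figure D2:**
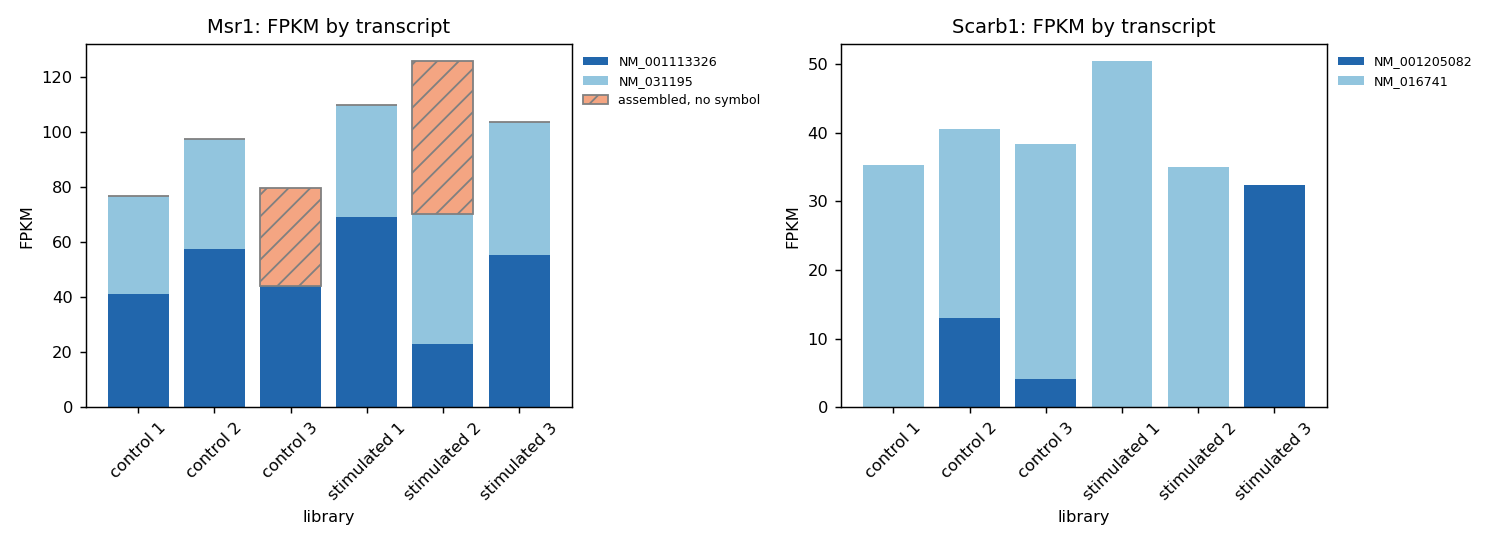
FPKM of each transcript of Msr1 (left) and Scarb1 (right) in each library, stacked, with hatched bars for assembled transcripts that carry no symbol. An assembled transcript takes 35.6 FPKM of Msr1 in control replicate 3 and 55.6 FPKM in stimulated replicate 2, and all 32.4 FPKM of Scarb1 in stimulated replicate 3 are listed under NM_001205082.

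Cd36, a class B receptor that takes up oxidised low-density lipoprotein and long-chain fatty acids, looked lower in stimulated cultures when annotated transcripts alone were counted, and this depended on the transcripts counted. By annotated transcripts it was at 422, 398 and 557 FPKM in controls and at 301, 328 and 255 FPKM in stimulated libraries, without overlap. The log2 fold change was -0.63 (standard error 0.159, 95% interval -1.02 to -0.24), and it did not pass the threshold (adjusted p = 0.445 from limma). Assembled transcripts at Cd36 held 111, 154 and 89.7 FPKM in controls and 236, 186 and 273 FPKM in stimulated libraries, so they ran in the opposite direction. Together the transcripts came to 533, 552 and 647 FPKM in controls and 538, 514 and 529 FPKM in stimulated libraries, and the groups overlapped. On the joint sum the log2 fold change was -0.13 (95% interval -0.31 to 0.05, adjusted p = 0.681 from limma).

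The annotated transcript that carried most of the difference was NM_001159556, with 302, 264 and 274 FPKM in controls and 158, 133 and 155 FPKM in stimulated libraries. The other annotated transcript seen in every library, NM_007643, was at 120, 134 and 115 FPKM in controls and at 143, 194 and 100 FPKM in stimulated libraries, and its groups overlapped. Each control library had 1 assembled transcript at the locus and each stimulated library had 2. In stimulated replicates 2 and 3 the additional one was 3396 bases long, against 3399 for NM_001159556, with the same ends (chromosome 5, minus strand, 17781690 to 17849792). The annotated forms of Cd36 share 1416 coding bases, and some of them differ in their start. Transcripts that begin at 17849792 summed to 413, 418 and 437 FPKM in controls and 232, 320 and 428 FPKM in stimulated libraries, and in stimulated replicate 1 a further 163 FPKM was listed for an assembled transcript that begins at 17854206. Transcripts that begin at 17835896 were at 120, 134 and 210 FPKM in controls and at 143, 194 and 100 FPKM in stimulated libraries, so the use of this start did not separate the groups.

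**Figure D3:**
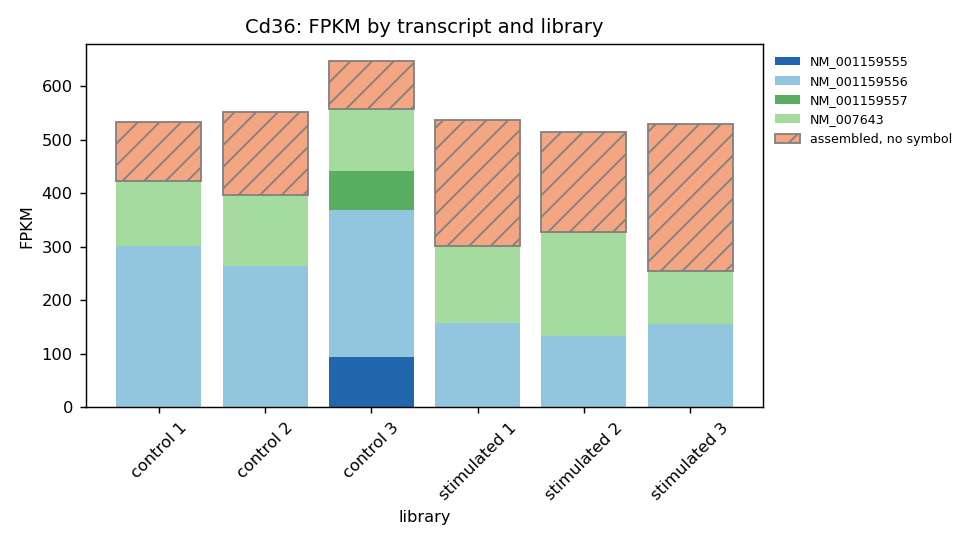
FPKM of each Cd36 transcript in each library, stacked, with hatched bars for assembled transcripts that carry no symbol. The hatched part is 89.7 to 154 FPKM in controls and 186 to 273 FPKM in stimulated libraries, while the full bars reach 533 to 647 FPKM and 514 to 538 FPKM.

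Scarb1 encodes the class B receptor that moves cholesterol between cells and high-density lipoprotein. It was at 35.4, 40.6 and 38.4 FPKM in controls and at 50.4, 35.1 and 32.4 FPKM in stimulated libraries. The stimulated libraries lay on both sides of the controls, and the log2 fold change was 0.02 (95% interval -0.47 to 0.51, adjusted p = 0.992 from limma). No assembled transcript lay at Scarb1. Its main form, NM_016741 (chromosome 5, minus strand, 125277087 to 125341094), was listed at 35.4, 27.5 and 34.3 FPKM in controls and at 50.4, 35.1 and 0 FPKM in stimulated libraries. NM_001205082 was at 0, 13.1 and 4.09 FPKM in controls and at 0, 0 and 32.4 FPKM in stimulated libraries. Stimulated replicate 3 thus listed the whole of Scarb1 under the form that was at 0 in both other stimulated libraries, on 48.9 fragments. The forms differ by an exon that changes the cytoplasmic tail of the protein, and its 126 coding bases in NM_016741, absent from NM_001205082, are shown from GENCODE.
Scarb1 exon 12, chr5:125281108-125281233: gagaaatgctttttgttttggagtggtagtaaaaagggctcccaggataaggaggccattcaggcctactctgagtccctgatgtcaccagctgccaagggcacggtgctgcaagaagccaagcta

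Scarb2, also class B, encodes the lysosomal membrane protein LIMP-2, which carries glucocerebrosidase to the lysosome. By its annotated transcript (NM_007644) it was at 94.2, 53.5 and 73.8 FPKM in controls and at 83.9, 64.1 and 51.8 FPKM in stimulated libraries, with overlap. The log2 fold change was -0.14 (95% interval -0.80 to 0.53, adjusted p = 0.886 from limma). Assembled transcripts lay at the locus in 4 of the 6 libraries, and with them Scarb2 was at 94.2, 92.6 and 106 FPKM in controls and at 83.9, 105 and 95.6 FPKM in stimulated libraries. In FPKM the spread within each group narrowed, the groups still overlapped, and the log2 fold change was -0.05 (95% interval -0.32 to 0.22, adjusted p = 0.929 from limma). In fragments of the whole locus Scarb2 was at 179, 201 and 202 per 1000000 in controls and at 159, 241 and 292 in stimulated libraries. There the log2 fold change turned to 0.21 (95% interval -0.35 to 0.76, adjusted p = 0.831 from limma). Cufflinks marked the annotated value LOWDATA in control replicate 2 and in stimulated replicates 2 and 3.

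Scarf1 encodes a class F receptor with epidermal growth factor-like repeats that binds modified lipoproteins and apoptotic cells. It was at 13.1, 14.5 and 13.7 FPKM in controls and at 22.5, 25.6 and 19.97 FPKM in stimulated libraries. The groups did not overlap, on 26.9 to 29.0 fragments per control library and 37.0 to 48.9 per stimulated library. The log2 fold change was 0.71 (standard error 0.160, 95% interval 0.32 to 1.11), which is 1.64-fold, and it did not pass the threshold over all genes (adjusted p = 0.351 from limma). In fragments of the whole locus, a scale added after the values had been seen, the log2 fold change was again 0.71 and the adjusted p was 0.0487 from limma. On that scale it was over the threshold whenever any 1 library was left out (0.0581 to 0.282). Scarf1 has 1 annotated transcript (NM_001004157, plus strand of chromosome 11, 75513541 to 75526580) with 2460 coding bases, and no assembled transcript.

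Cd68, or macrosialin, is a heavily glycosylated class D protein of late endosomes and lysosomes that is widely used as a macrophage marker. It was at 1089, 1177 and 1216 FPKM in controls and at 1281, 1253 and 1209 FPKM in stimulated libraries. The lowest stimulated library lay below the highest control library, and the log2 fold change was 0.11 (95% interval -0.03 to 0.24, adjusted p = 0.789 from limma). All of it was listed under 1 transcript, NM_001291058.

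Stab1 encodes stabilin-1, a class H receptor that clears the matrix protein SPARC and acetylated low-density lipoprotein. By its annotated transcript, NM_138672, which has 69 exons, it was at 95.0, 70.2 and 54.9 FPKM in controls and at 60.6, 75.3 and 79.4 FPKM in stimulated libraries. The groups overlapped and the log2 fold change was -0.01 (95% interval -0.57 to 0.56, adjusted p = 0.998 from limma). At least 1 assembled transcript lay at Stab1 in every library, and with these it was at 164, 130 and 130 FPKM in controls and at 104, 91.9 and 137 FPKM in stimulated libraries. On that sum the log2 fold change was -0.36 (95% interval -0.74 to 0.02, adjusted p = 0.570 from limma), and in fragments of the whole locus it was -0.13 (adjusted p = 0.432 from limma). The 3′ end of Stab1 overlaps its neighbour Nt5dc2 by 108 bases.

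**Figure D4:**
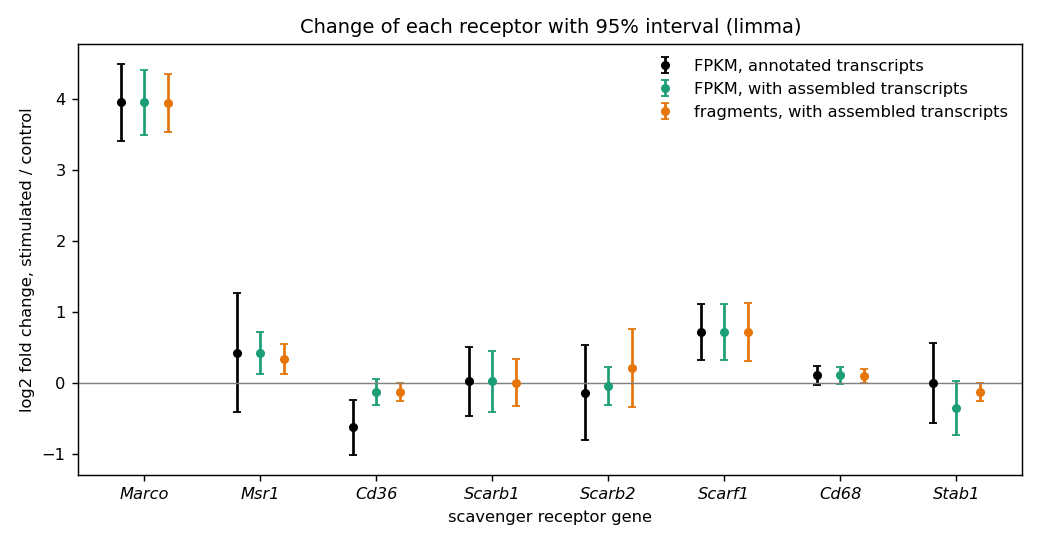
Log2 fold change of each receptor, stimulated over control, with its 95% interval from limma, by FPKM of annotated transcripts (black), by FPKM with assembled transcripts (green) and by fragments with assembled transcripts (orange). Marco is at 3.95 on all 3 scales, and Cd36 moves from -0.63 to -0.13 once assembled transcripts are added.

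Fragments of the whole locus were compared across all genes as well. On that scale 258 of 11259 genes (2.29%) passed the threshold, against 2 of the 8 receptors, Marco (log2 fold change 3.95, adjusted p = 5.92e-07 from limma) and Scarf1. Groups did not overlap in the upward direction for Marco, Msr1 and Scarf1, that is 3 of 8, where 9.4% of all genes did so, and in the downward direction for Cd36, where 7% of all genes did so. The separation of Cd36 was narrow, with 1724, 1786 and 2100 fragments per 1000000 of the library in controls and 1721, 1669 and 1710 in stimulated libraries.

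The order of the receptors by level can be read from FPKM, which is per length. In controls the order was Cd68 (1160 ± 65.0 FPKM), Cd36 (459 ± 85.8), Scarb2 (73.8 ± 20.4), Stab1 (73.4 ± 20.2), Msr1 (72.7 ± 27.0), Scarb1 (38.1 ± 2.61), Marco (25.8 ± 7.08) and Scarf1 (13.8 ± 0.687; SD, n = 3). Scarb2, Stab1 and Msr1 overlapped with their neighbours in this order, and the others did not. In stimulated cultures Marco stood at rank 2 in place of rank 7, above Cd36 (295 ± 36.6 FPKM by annotated transcripts) and below Cd68 (1248 ± 36.3 FPKM). With assembled transcripts added, Cd36 (527 ± 11.9 FPKM) stood above Marco (391 ± 35.8 FPKM), so the order of these receptors depended on the transcripts counted.

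As a share of the summed FPKM of the 8 receptors, which does not depend on the scaling of a library, Marco held 0.990%, 1.72% and 1.32% in controls and 17.6%, 18.3% and 16.7% in stimulated libraries. Cd36 held 22.9%, 21.1% and 27.5% in controls and 13.0%, 14.5% and 12.1% in stimulated libraries. Cd68 held 59.1%, 62.5% and 60.1% in controls and 55.2%, 55.3% and 57.5% in stimulated libraries. A share must fall in some receptors when it rises in another, and the summed FPKM itself was 1843 to 2024 in controls and 2102 to 2318 in stimulated libraries. The exact two-sided permutation test gave p = 0.1 for Marco, Cd36, Cd68 and Scarf1, which is the smallest p that 3 libraries against 3 allow, and 0.2 after Benjamini-Hochberg adjustment over 8 shares. With assembled transcripts added, the mean share of Cd36 was 26.9% in controls and 20.7% in stimulated libraries, and that of Marco 1.20% and 15.4%.

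**Figure D5:**
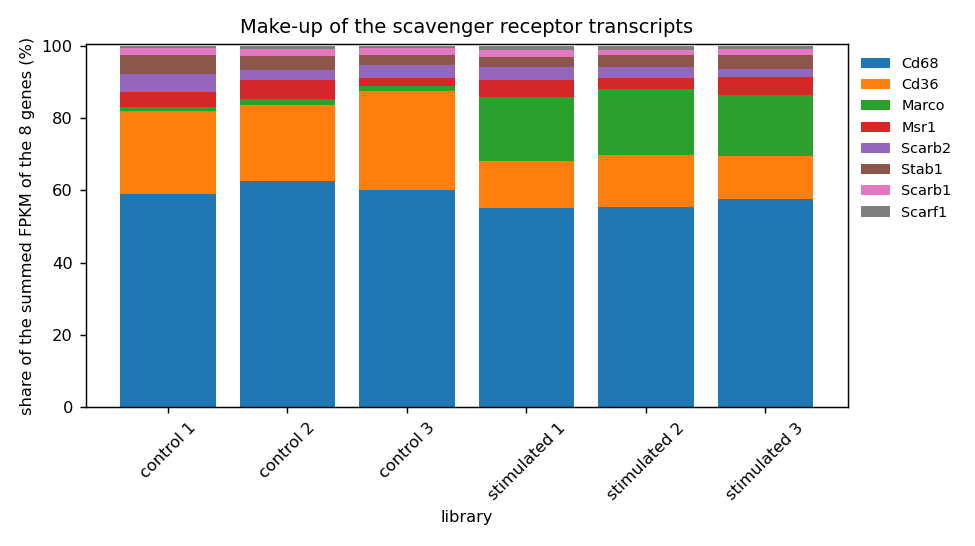
Share of the summed FPKM of the 8 receptors held by each of them in each library, in percent, by annotated transcripts. The green part, Marco, is 0.990% to 1.72% of a control bar and 16.7% to 18.3% of a stimulated bar, and Cd68 is the largest part of each bar.

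Genes related to the receptors were examined as lists. None of the tested genes of these lists passed the threshold by annotated FPKM in limma. Their counts of an unadjusted p under 0.05 stand beside 675 of 10352 for all genes tested. Of 16 other scavenger receptors, 6 were tested, 0 passed and 2 had an unadjusted p under 0.05, with a median log2 fold change of -0.14. Lrp1, an endocytic receptor, was at 235, 239 and 237 FPKM in controls and at 96.7, 202 and 233 FPKM in stimulated libraries (log2 fold change -0.52, adjusted p = 0.797 from limma, and -0.15 in fragments of the whole locus), and Colec12, a class A receptor, had a log2 change of -0.47 (limma, adjusted p = 0.777). Cxcl16, a chemokine that also binds oxidised lipoprotein, was listed at 0 in control replicate 3 and at 73.2 to 139 FPKM in the other libraries, and in fragments of its whole locus it rose (log2 fold change 0.35, adjusted p = 0.00417 from limma).

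The list of co-receptors and kinases that work with scavenger receptors had 16 tested genes, of which 0 passed and 5 had an unadjusted p under 0.05, with a median log2 fold change of 0.26. In fragments of the whole locus, genes of this list that rose in limma included Tlr2, which signals for bacterial lipoproteins (log2 fold change 0.48, adjusted p = 0.000415), Cd14, its co-receptor (0.64, adjusted p = 5.44e-05), and Fgr, a tyrosine kinase (0.64, adjusted p = 0.0022). By annotated FPKM Tlr2 was at 63.8, 100 and 98.4 in controls and at 154, 148 and 134 in stimulated libraries, without overlap (adjusted p = 0.465 from limma). By annotated FPKM, Fgr changed by 1.04 in log2 units (limma, adjusted p = 0.724). Mertk was listed at 0 in control replicates 1 and 2 and Src at 0 in stimulated replicate 1, and their loci had log2 fold changes of -0.08 and 0.44 in fragments, with adjusted p-values of 0.846 and 0.537 from limma.

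Among 14 genes of lipid uptake and storage, which act on what the class B receptors bring in, 12 were tested, 0 passed and 2 had an unadjusted p under 0.05, with a median log2 fold change of -0.07. Acsl1, which activates fatty acids, was at 20.4, 15.6 and 15.8 FPKM in controls and at 33.4, 42.4 and 38.0 FPKM in stimulated libraries (log2 fold change 1.13, adjusted p = 0.158 from limma). Rxra and Nr1h2, nuclear receptors of lipid metabolism, had log2 fold changes of -0.69 and 0.43 (adjusted p = 0.797 and 0.789 from limma). In fragments of the whole locus Rxra was at -0.23 and Nr1h2 turned to -0.13 (adjusted p = 0.355 and 0.794 from limma). In fragments of the whole locus Acsl1 rose (1.21, adjusted p = 5.92e-07 from limma), while the fatty acid-binding protein gene Fabp5 (-0.32, adjusted p = 8.6e-05 from limma) and the lipid droplet gene Plin2 (-0.33, adjusted p = 0.000215 from limma) fell. Plin2 had the opposite direction by annotated FPKM (0.21, adjusted p = 0.863 from limma), where its groups overlapped. Fabp5 was at -0.31 there (adjusted p = 0.12 from limma).

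Of 14 sorting and lysosomal partners of the receptors, 13 were tested, 0 passed, 2 had an unadjusted p under 0.05, and 0 passed in fragments of the whole locus. The largest changes were those of Gga2 (log2 fold change 0.44, adjusted p = 0.782 from limma, and 0.16 in fragments of the whole locus), Sort1 (-0.31, adjusted p = 0.797 from limma, and -0.02 in fragments) and Pdzk1 (-0.29, adjusted p = 0.984 from limma), and Pdzk1 was listed at 0 in 1 library of each group. All 16 transcription factors known to act on the receptors were tested, 0 passed, 2 had an unadjusted p under 0.05 and 0 passed in fragments of the whole locus. Nfkb1, a subunit of NF-kB, was at 25.7, 17.5 and 21.9 FPKM in controls and at 38.4, 35.8 and 31.0 FPKM in stimulated libraries (log2 fold change 0.70, adjusted p = 0.517 from limma), and it was at 0.27 in fragments of its whole locus (limma, adjusted p = 0.472). Ets2 changed by 0.89 in log2 units (limma, adjusted p = 0.698), and Tfec was listed at 0 in control replicate 1 and at 19.5 to 37.1 FPKM in the other libraries, with a log2 fold change of -0.08 in fragments of its whole locus (adjusted p = 0.949 from limma).

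The genes with a pattern over the 6 libraries most like that of Marco were taken from 5110 genes averaging 10 FPKM or more, by Pearson's r of log2 values. They were Saa3 (r = 0.999), Prdx1 (0.998), Aldoa (0.998), Irg1 (0.997) and Gm12070 (0.996), and 63 genes had an r over 0.95. Marco lay far apart in the control and the stimulated libraries, so these values mostly describe the difference between the groups and are given without a test. Saa3 was at 296, 454 and 349 FPKM in controls and at 3653, 3796 and 2935 FPKM in stimulated libraries. The value of r does not measure the size of a change. Prdx1 was at 2710, 2810 and 2817 FPKM in controls and at 3351, 3337 and 3341 FPKM in stimulated libraries. Aldoa was at 1261.9, 1281.4 and 1275.9 FPKM and at 1477.3, 1478.2 and 1476.5 FPKM. Irg1 was at 6.5, 8.4 and 8 FPKM and at 51.3, 58.8 and 57 FPKM.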

How the data were processed

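Macrophage RNA-seq libraries of 3 control and 3 stimulated cultures were used. The authors used TopHat and Bowtie to place 100-bp read pairs on mm10, and Cufflinks to estimate abundance per library. Cuffdiff is also named in the submitters' processing notes, and versions are not given in the sources used here. The deposited values are FPKM per transcript, and the deposited coverage signal is the mean read depth beside each. The values do not show whether the TMM step of the Methods acted on them.

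FPKM were summed over the transcripts that carry a gene symbol. Genes averaging 1 FPKM or more were taken to log2(FPKM + 0.1), so folds of low genes are understated, and tested two-sided in limma 3.58.1 under R 4.3.3, with a variance trend and robust eBayes. P-values were adjusted by Benjamini-Hochberg over all tested genes, at a threshold of 0.05. Fragments were recovered from coverage and effective length, and intervals on them cover counting error only. Bases per fragment and mean fragment length were chosen so that most low values fell within 0.1 of a whole number. The share reached, 93.6% to 94.5%, is therefore not an independent check. Python 3.11.15 with pandas 2.3.3, scipy 1.17.1 and matplotlib 3.10.9 made the tables, exact tests and figures. The fit was also run on simulated libraries with known changes. These did not model the division of fragments between annotated and assembled transcripts, so the run says nothing about its effect.

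The members and lists were chosen with earlier results of these data known. The text names all 8 members, from each list the genes past the threshold or the 3 with the largest change, and the 5 genes most like Marco. Other genes were chosen after their values were seen. Sums and fragments over a whole locus, which add assembled transcripts to the symbol of their Cufflinks gene, were added after the values were seen, because assembled transcripts carry no symbol. On these 9 added settings more genes pass than by the planned sum, which stays the main result. Fragments were scaled to 1000000 per library, with a pseudocount of 0.2. Another 20 alternatives had been planned. Starts in the files were raised by 1 base, since 61.5% of 23154 lay 1 base before those of RefSeq. Protein measurements of the study were not analysed here. The result of 1 gene of the lists is not reported here.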

Additional observations from a re-analysis of the deposited data

Results flagged for a closer look

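At Cd36, assembled transcripts without a symbol, which the comparison by annotated transcripts leaves out, were higher in every stimulated library than in any control library. The lowest stimulated library had 186 FPKM and the highest control library 154 FPKM. These transcripts held 13.8% to 28.0% of the Cd36 fragments in controls and 35.9% to 51.6% in stimulated libraries. Whether they are distinct transcripts or a different division of the same fragments was not tested. No group has enough libraries for a test of single outlying values.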

How the results depend on the processing

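Marco rose under all 29 alternatives, by 3.72 to 4.14 on the log2 scale. Its adjusted p in limma stayed under 0.05 in 26 of them. The exceptions were the replicate block and the comparisons without stimulated replicate 1 and without stimulated replicate 2, where by FPKM 0 of the 8 receptors passed. Leaving out 1 library at a time gave log2 fold changes of 3.73 to 4.14 by FPKM, 0 to 1 receptor and 0 to 19 genes past the threshold, and in fragments of the whole locus 1 to 2 receptors and, in replicate order, 187, 162 and 209 genes without a control library and 154, 166 and 222 without a stimulated one. Across all genes, 8 passed with a pseudocount of 0.01, 12 with a mean of at least 5 FPKM and 10 with each transcript tested apart, against 19. With assembled transcripts added 38 passed, and in fragments of the whole locus 258 genes and 2 receptors did; these settings were chosen after the values were seen, and the cause of the higher counts was not tested.

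The replicate numbers recur in both groups, and the labels do not say whether same-numbered cultures were paired. Over all genes, deviations of same-numbered libraries from their group means had correlations of 0.028, -0.005 and 0.008. Noise within single genes can hide a shared source in such values, so they cannot decide whether the libraries were paired. With the replicate number as a block, 0 genes and 0 receptors passed by FPKM (519 genes had an unadjusted p under 0.05), and Marco, at 3.95 on the log2 scale, was at 0.207 after adjustment in limma. In fragments of the whole locus, the block left 234 genes, Marco among them, 1 receptor in place of 2 (Scarf1 was at an adjusted p of 0.0676 in limma), and Scarb2 at 0.21.

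The receptors near zero change turned direction, with no adjusted p under 0.05 except 1. Scarb1 was at -0.02 with equal totals and with quantiles and -0.0022 with size factors. With each transcript tested apart, its transcript with the highest mean FPKM, NM_016741, was at -2.52. Scarb1 was at -0.17 to 0.14 with 1 library left out (-0.21 to 0.15 in fragments, -0.05 there without control replicate 1). Scarb2 was at -3.23 (standard error 3.896, adjusted p = 0.804 from limma) with lines of status OK only, which its annotated transcript lacked in 3 libraries, at -0.35 to 0.06 with 1 library left out, at 0.21 in fragments and at 0.15, 0.23 and 0.24 there without control replicates 1 to 3 and 0.45, 0.15 and 0.01 without stimulated replicates 1 to 3, with an adjusted p of 0.0469 from limma without stimulated replicate 1. Stab1 was at -0.20 to 0.20 with 1 library left out. NM_001113326, the Msr1 transcript with the highest mean FPKM, was at -0.08 when tested apart. The share of Msr1 differed by -0.0995 percentage points with Cd68 left out, against 0.416. Depth limits Scarf1 most, at 83 fragments over the controls.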
